A study of Mus musculus with 6 samples.

Results

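The genes described here copy the chromosomes during S phase. They are 40 genes picked by symbol, from the loading of the replicative helicase to the supply of DNA building blocks, and 38 of them were measured by a probe set that names 1 gene, among 12393 genes in all; Gins2 and Chaf1a were not analysed here. They were read in embryonic brain at day E11.5 in Swiss Albino mice, with 3 malformed brains of embryos whose mothers had streptozotocin (STZ) induced diabetes (the diabetic group), set against 3 brains of embryos from normal mice (the control group), each brain on its own array. STZ destroys the pancreatic cells that make insulin. Every diabetic brain was also a malformed one, so the mother's diabetes cannot be told apart from the malformation, and the labels do not say whether brains shared a mother; p-values then measure the spread between these 6 arrays.

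Replication starts at origins, where the origin recognition complex with Cdc6 and Cdt1 loads the Mcm2-7 ring, the core of the helicase. Cyclin E with Cdk2 and other kinases then fire the origins, Cdc45 and the GINS complex join the ring, and polymerases copy both strands behind it. At E11.5 the wall of the brain is made mostly of dividing progenitors, and S phase genes are expressed in these cells and are silenced as neurons leave the cycle. Many of these genes are known targets of E2F, the transcription factor family released when the retinoblastoma protein is phosphorylated.

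The members share promoter letters that their choice did not use. Promoters of 32 members, Chaf1a among them, were present in the RefSeq promoter table of mouse build GRCm38.p6, which holds 250 bases before to 50 after each listed start. It lists 32851 promoters for 27025 genes, so some genes have several. A gene was counted as holding a motif if any of its promoters did. The E2F motif was searched on both strands in 4 forms, TTTCCCGC, TTTGGCGC, TTTCGCGC and TTTGCCGC. It was present in 12 of the 32 members (37.5%), against 350 of 7005 genes tested with a promoter (4.996%) and 704 of 27025 genes in the table (2.60%). The CCAAT box, bound by NF-Y, was held by 21 of 32 members (65.6%), against 43.4% of genes tested and 41.1% of all genes. The CHR motif, TTTGAA, a mark of genes expressed late in the cycle, was held by 3 members (9.38%), against 14.2% of genes tested. Median GC content was 59.5% in the members' promoters and 61.3% in those of the genes tested. In the members' promoters, 1 pair of matches to different motifs overlapped.

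The E2F letters were most frequent in the promoters of initiation and helicase genes, with 7 of 12, against 4 of 14 for polymerase and fork genes, 1 of 3 for S phase entry genes and 0 of 3 for nucleotide supply genes. The stretches below are examples picked from members that hold these motifs, and they do not represent all 32 members. They end at the last base before the gene and lie in no other annotated gene. Within the stretch shown, 1 has both motifs, 1 has E2F letters alone and 3 have CCAAT boxes alone, and capitals mark the E2F and CCAAT letters on either strand.
Mcm6, chr1:128359706-128359825, minus strand: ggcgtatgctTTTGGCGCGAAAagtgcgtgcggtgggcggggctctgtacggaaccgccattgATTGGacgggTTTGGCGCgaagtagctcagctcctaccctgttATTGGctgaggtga
Mcm3, chr1:20820313-20820442, minus strand: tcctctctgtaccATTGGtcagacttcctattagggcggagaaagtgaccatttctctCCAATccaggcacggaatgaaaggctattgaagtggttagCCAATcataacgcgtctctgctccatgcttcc
Rfc3, chr5:151651209-151651268, minus strand: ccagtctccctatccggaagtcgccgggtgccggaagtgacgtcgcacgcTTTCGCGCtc
Pcna, chr2:132253181-132253290, minus strand: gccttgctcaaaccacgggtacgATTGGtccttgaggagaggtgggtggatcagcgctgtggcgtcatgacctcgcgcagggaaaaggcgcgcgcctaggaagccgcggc
Rrm1, chr7:102441585-102441694, plus strand: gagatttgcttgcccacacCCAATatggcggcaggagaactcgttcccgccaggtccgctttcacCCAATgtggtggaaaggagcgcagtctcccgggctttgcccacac
In Mcm6 the first capital run is a pair of overlapping E2F matches, on opposite strands, that begin 110 and 106 bases before the gene. Outside the stretches shown, Mcm3 also holds E2F letters just past its start. Rfc3 likewise holds a CCAAT box 229 bases before the gene and further E2F letters at its start. A match is a description of letters and not a measured site of binding.

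Signals are linear probe set intensities, and every array was scaled to the same trimmed mean of 500. The first value table holds replicates 1 and 2 of both groups and the second table holds replicate 3 of both groups, on another chip type, so each difference was taken within a table. Median signals ran from 173 to 227 over the diabetic arrays and from 165 to 222 over the control arrays, with the lowest in the second table. Arrays correlated at 0.935 to 0.975 within a table and at 0.877 to 0.930 between tables, across genes. Control replicate 1 stood apart in the 5′ probe set of small-subunit ribosomal RNA, at 4338 against 71.9 to 165 on the other arrays. The 3′ over 5′ signal ratio of Gapdh was 0.701 to 0.815 on diabetic and 0.725 to 0.812 on control arrays. Of 8 brain markers listed, 7 were measured and lay at 420.4 or above on every array, Dcx being the lowest.

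All 38 measured members had a mean signal of at least 100 and were tested, and 0 of them passed limma after Benjamini-Hochberg adjustment over the 8631 genes tested, of which 0% passed. The smallest adjusted p of a member was 0.609. At an unadjusted p under 0.05 there were 4 members (10.5%), against 7.59% of all genes tested, 3 of them higher (3.72% of all genes) and 1 lower (3.87%). Log2 changes, taken as diabetic minus control on log2(signal + 32), had a median of 0.053 over the members and 0.012 over all genes, and 25 of 38 members lay above 0, against 52.2% of all genes. The median size of a change, whatever its sign, was 0.13 for members and 0.15 for all genes, beside a median standard error of 0.16 for members.

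**Figure D1:**
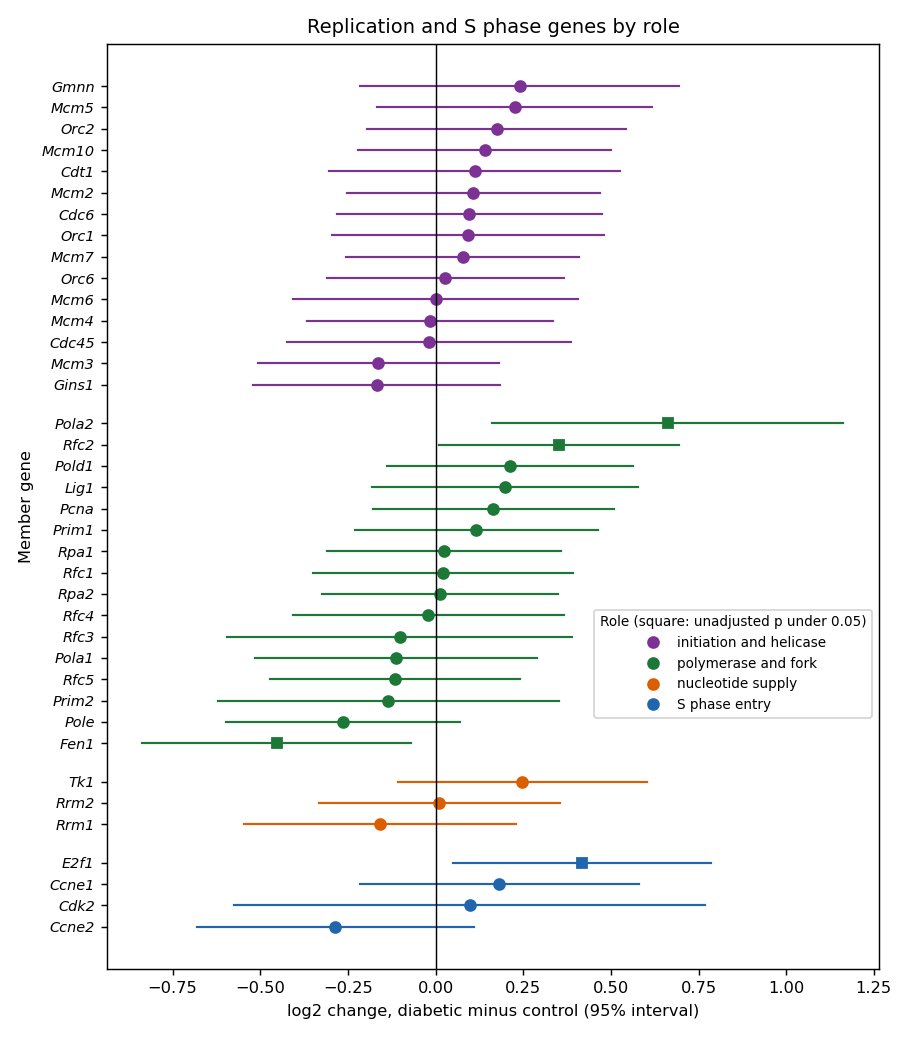
Log2 change of each measured member, diabetic minus control, with its 95% interval from limma, grouped by role (colour) and ordered within a role. Squares mark the 4 members at an unadjusted p under 0.05 (Pola2, Rfc2, Fen1 and E2f1), and the intervals of the other 34 hold 0.

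Each interval holds for 1 member on the probe set used and is not adjusted over the members. Other probe sets of a gene can lie outside it: Rfc1, with 0.021 on the probe set used, had 0.67 ± 0.24 and -0.28 ± 0.17 on its others. The 95% interval reached, at the median, 0.37 to either side of the change on the log2 scale. For 37 of 38 members it lay within a 2-fold change in either direction, the exception being Pola2 with an upper bound of 1.16, and for 26 it lay within a 1.5-fold change. Groups did not overlap in either table, on the same side, for 11 members (28.9%), against 22.0% of all genes tested (8 members after quantile normalization, against 21.6% of all genes): 7 were higher in the diabetic group (11.3% of all genes) and 4 lower (10.7%). In the second table this sets 1 diabetic array against 1 control array.

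Genes that choose and license origins had changes near 0. Among the 15 measured initiation and helicase genes the median log2 change was 0.092, with 11 above 0 and 0 at an unadjusted p under 0.05; it was -0.051 in the second table alone. Orc1, Orc2 and Orc6, subunits of the origin recognition complex, had 0.092 ± 0.17, 0.17 ± 0.16 and 0.028 ± 0.15 (SE, n = 3 per group). Cdc6 and Cdt1, which bring the helicase ring to the origin, had 0.096 ± 0.17 and 0.11 ± 0.18.

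Gmnn encodes geminin, the inhibitor of Cdt1 that keeps an origin from being licensed again in the same cycle. Its signals were 1344, 2008 and 1975 on diabetic replicates 1 to 3, against 1260.5, 1159.6 and 2190.0 on control replicates 1 to 3. Both diabetic arrays of the first table lay above both control arrays, and in the second table the diabetic array was the lower one. Its log2 change of 0.24 ± 0.20 was the highest of this role, with an unadjusted limma p of 0.267 and an adjusted p of 0.766. The first table alone gave 0.43, the second -0.15, and both tables together 0.022 without diabetic replicate 2.

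The 6 subunits of the Mcm2-7 ring had log2 changes between -0.16 and 0.23 on the probe sets used. Mcm7 had signals of 7828, 7148 and 6803 on diabetic replicates 1 to 3, against 7044, 6904 and 6659.5 on control replicates 1 to 3. The diabetic arrays were the higher ones in both tables, by a log2 change of 0.077 ± 0.15 (limma adjusted p 0.897), which was -0.018 after quantile normalization. Mcm3 had signals of 2200.5, 2616 and 2655 on diabetic replicates 1 to 3, against 2759, 2664 and 2930.4 on control replicates 1 to 3. Its diabetic arrays were the lower ones in both tables, with a log2 change of -0.16 ± 0.15 (adjusted p 0.792), and the mean of its 5 probe sets gave 0.12.

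The other ring subunits were Mcm2 with 0.11 ± 0.16, Mcm4 with -0.016 ± 0.16, Mcm5 with 0.23 ± 0.17 and Mcm6 with 0.00086 ± 0.18 (SE, n = 3 per group). Mcm10, a loading factor for the polymerase, had 0.14 ± 0.16, and Cdc45, the helicase activator, -0.019 ± 0.18. Gins1, a GINS subunit, had signals of 647, 545 and 1081 on diabetic replicates 1 to 3, against 718, 708 and 1083 on control replicates 1 to 3. The diabetic arrays were lower in both tables, with a log2 change of only -0.0020 in the second. Its log2 change of -0.17 ± 0.16 (limma adjusted p 0.790) was -0.077 without diabetic replicate 2.

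Among the 16 measured polymerase and fork genes, 9 lay above 0 and the median log2 change was 0.017. This role held the lowest and the highest change of all members, Fen1 and Pola2. Pola2 encodes the second subunit of DNA polymerase alpha, the enzyme that lays the primers of each new fragment. Its signals were 602, 992 and 807 on diabetic replicates 1 to 3, against 553, 579 and 353 on control replicates 1 to 3. Diabetic replicates 2 and 3 stood far above their control arrays and diabetic replicate 1 just above. The log2 change was 0.66 ± 0.22 (SE, n = 3 per group), a 1.58-fold difference with an unadjusted p of 0.0152 and a limma adjusted p of 0.609. The first table alone gave 0.43 and the second 1.12. With 1 array removed, the change lay between 0.43, without either array of the second table, and 0.93, without diabetic replicate 1. Array weights, with all arrays kept, also gave 0.43, at an unadjusted limma p of 0.075.

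The partners of Pola2 in the same enzyme had values nearer 0. Pola1, the catalytic subunit, had -0.11 ± 0.18, and the tables gave 0.098 (first) and -0.54 (second). The primase subunits Prim1 and Prim2 had 0.12 ± 0.15 and -0.13 ± 0.22, and Prim2 had -0.54 in the second table, where Pola2 had its highest value. The second table compares 1 diabetic with 1 control brain, and the difference between subunits was singled out after the values were seen and was not tested.

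**Figure D2:**
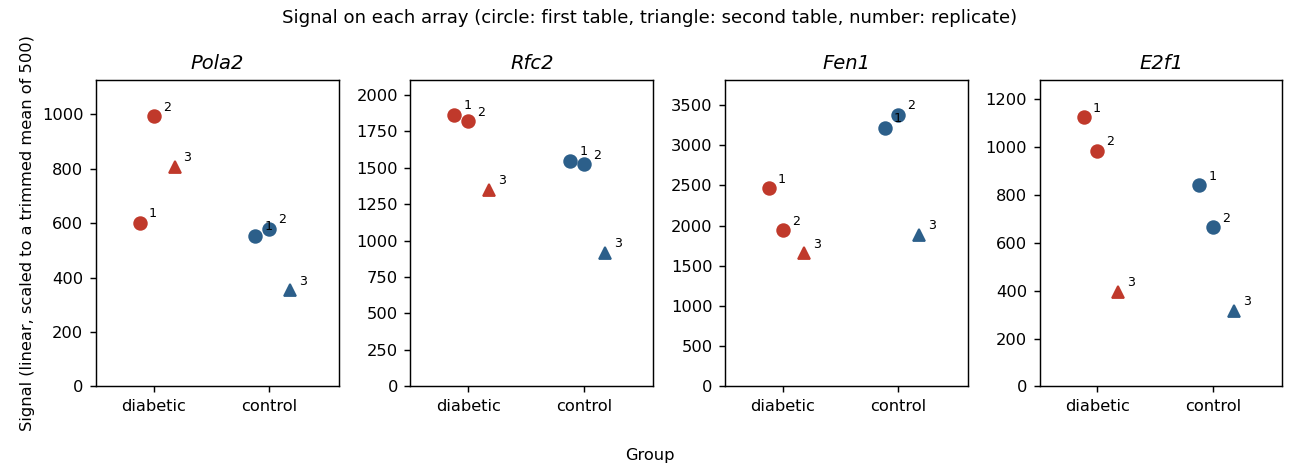
Linear signals of the 4 members at an unadjusted p under 0.05, diabetic arrays left and control arrays right in each panel, with circles for the first table, triangles for the second and the replicate number beside each point. Within each table Pola2, Rfc2 and E2f1 were higher and Fen1 lower on the diabetic arrays.

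The replicative polymerases leaned to opposite sides, each by less than its interval. Pold1, the catalytic subunit of the lagging-strand polymerase delta, had signals of 1448, 1615 and 852 on diabetic replicates 1 to 3, against 1182, 1273 and 843 on control replicates 1 to 3, and a log2 change of 0.21 ± 0.16 (limma adjusted p 0.737). Its diabetic arrays were the higher ones in both tables, by 0.014 in the second. Pole, its counterpart in the leading-strand polymerase epsilon, had signals of 587, 574 and 719.6 on diabetic replicates 1 to 3, against 749.8, 669 and 857 on control replicates 1 to 3. Its diabetic arrays were the lower ones in both tables (-0.27 and -0.24), and its log2 change was -0.26 ± 0.15 (adjusted p 0.690).

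Pcna forms the sliding clamp that holds polymerases on DNA, and the Rfc1 to Rfc5 complex loads it. Pcna signals were 10149, 11059 and 10447 on diabetic replicates 1 to 3, against 8601, 9594 and 10078 on control replicates 1 to 3. The diabetic arrays were higher in both tables, by a log2 change of 0.16 ± 0.15 (limma adjusted p 0.789), which was 0.027 after quantile normalization and 0.10 without control replicate 1. Rfc2 had signals of 1863, 1818 and 1349 on diabetic replicates 1 to 3, against 1547, 1521 and 915 on control replicates 1 to 3. Its groups did not overlap in either table, and its log2 change of 0.35 ± 0.15 had an unadjusted p of 0.0445 and an adjusted p of 0.652. The other 4 loader subunits ran from -0.12 for Rfc5 to 0.021 for Rfc1. Rpa1 and Rpa2, which coat single-stranded DNA, had 0.025 ± 0.15 and 0.012 ± 0.15.

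Fen1 and Lig1 finish the lagging strand, Fen1 as the nuclease that trims the flap and Lig1 as the ligase that seals the nick. Fen1 signals were 2461, 1945 and 1653 on diabetic replicates 1 to 3, against 3216, 3380.2 and 1888 on control replicates 1 to 3. The diabetic arrays were the lower ones in both tables, and the log2 change of -0.45 ± 0.17, a ratio of 0.731, had an unadjusted p of 0.0254 and a limma adjusted p of 0.646. The first table alone gave -0.58, the second -0.19, and both together -0.32 without diabetic replicate 2. The other probe set of Fen1 had -0.041 ± 0.17. Lig1 had 0.20 ± 0.17.

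Nucleotide supply was represented by 3 genes, of which 0 had an unadjusted p under 0.05 and whose median log2 change was 0.011 (-0.14 in the second table alone). Ribonucleotide reductase, the enzyme that makes deoxyribonucleotides, is built from Rrm1 and Rrm2. Rrm1 had signals of 3400.3, 2779.6 and 2709.6 on diabetic replicates 1 to 3, against 2983, 3951 and 3033 on control replicates 1 to 3, which overlapped in the first table. Its log2 change was -0.16 ± 0.17 (SE, n = 3 per group) and that of Rrm2 was 0.011 ± 0.15. The other probe set of Rrm1 had 0.12, the mean of both gave -0.019, and without control replicate 2 the value was -0.044. Tk1, the thymidine kinase of S phase, had signals of 1211, 1403 and 853 on diabetic replicates 1 to 3, against 998, 1032 and 829 on control replicates 1 to 3. Its diabetic arrays were higher in both tables, by 0.35 and 0.040, for a log2 change of 0.25 ± 0.16 (limma adjusted p 0.711).

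At the entry to S phase stand E2f1, an activating E2F factor, the E-type cyclins Ccne1 and Ccne2, and their kinase Cdk2. E2f1 had signals of 1123, 984 and 396 on diabetic replicates 1 to 3, against 841, 663 and 315 on control replicates 1 to 3. The groups did not overlap in either table, and the log2 change of 0.42 ± 0.16, a 1.34-fold difference, had an unadjusted p of 0.0305 and a limma adjusted p of 0.648. Its second probe set had 0.63 ± 0.19, on the same side, and with any 1 array removed the change of the probe set used stayed between 0.31 and 0.49.

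The E-type cyclins stood on opposite sides in the first table. Ccne1 had 0.38 there and -0.21 in the second table, and Ccne2 had -0.46 and 0.058. Ccne2 signals were 319, 253 and 694 on diabetic replicates 1 to 3, against 403, 401 and 665 on control replicates 1 to 3, with the diabetic arrays lower in the first table and higher in the second. Its log2 change over both tables was -0.29 ± 0.18 (limma adjusted p 0.711), and that of Ccne1 was 0.18 ± 0.18. Cdk2 had 0.097 ± 0.30, with the widest standard error of the members: its signals were 1285, 666 and 1238 on diabetic replicates 1 to 3, against 1245, 589 and 1171 on control replicates 1 to 3, so that replicate 2 was the low array in both groups.

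The changes of members with and without E2F letters covered overlapping ranges. The 12 tested members with the motif had a median log2 change of 0.094 and a range from -0.16 to 0.23, and the 19 without it had 0.028 and a range from -0.45 to 0.66. The promoters of Pola2, Fen1 and E2f1 held neither E2F nor CCAAT letters in the window searched, which says only that these letters were not there. The promoters of Rfc2, Gmnn, Mcm4, Prim2, Gins1, Gins2, Ccne2 and Pole were not analysed here.

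The lean towards higher values came from the first table. The members' median was 0.063 on diabetic replicate 1, 0.19 on diabetic replicate 2 and -0.044 on diabetic replicate 3, each against the control mean of its table, where all genes had 0.014, -0.018 and 0.028. Of 38 members, 24, 25 and 15 lay above that control mean on diabetic replicates 1 to 3. The sign was the same in both for 17 of 38 members (44.7%, against 51.5% of all genes), 10 of them higher and 7 lower in the diabetic group. Across the 38 members, which share arrays and are no independent replicates, the changes in the first and second table correlated at a Pearson's r of 0.27 and a Spearman's rho of 0.15, against 0.039 and 0.037 across all genes tested.

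**Figure D3:**
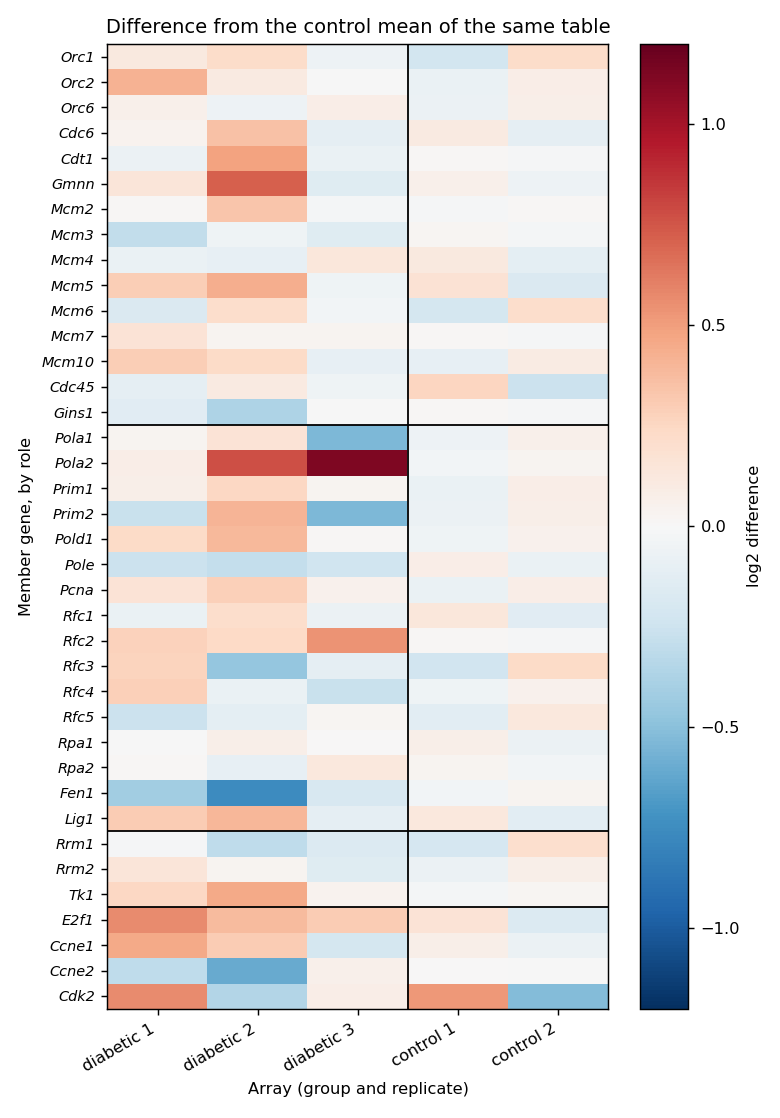
Log2 difference of each member (rows, by role) from the control mean of its own table, for the 3 diabetic arrays and control replicates 1 and 2 (columns); control replicate 3 is 0 by construction. On diabetic replicates 1 to 3, 24, 25 and 15 of the 38 members lie above 0.

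A test of whether a change differed between the tables (limma interaction term, with each second-table array assumed to vary like the others) called 0 of 8631 genes and 0 members after adjustment. At an unadjusted p under 0.05 it counted 0 of 38 members, against 6.81% of all genes tested, with Pola1 lowest at 0.0797. Signals of single members also differed between tables within the control group: control replicate 3 minus the mean of control replicates 1 and 2 was -1.17 for E2f1 and 1.08 for Rfc4 on the log2 scale. The chip type and brain both differ between those arrays and cannot be told apart, and run settings were not compared.

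**Figure D4:**
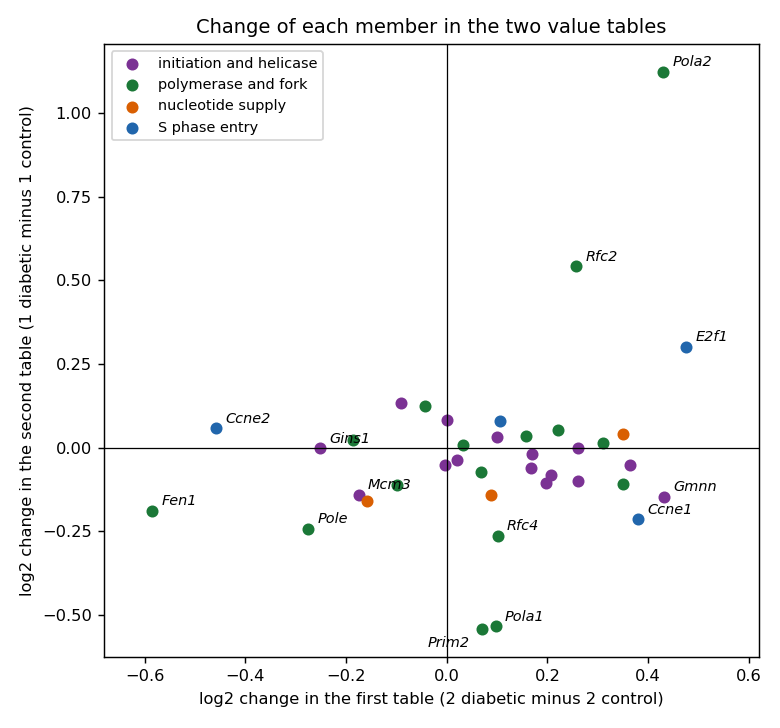
Log2 change of each member in the first table (x axis, 2 diabetic minus 2 control arrays) and in the second (y axis, 1 diabetic minus 1 control array), coloured by role. Pola2, Rfc2 and E2f1 lie in the upper right and Fen1 and Pole in the lower left, while 21 of 38 members differ in sign between the tables.

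Probe sets of the same gene often differed. Of 20 members with several tested probe sets, 10 had probe sets of differing sign, and the median range within a gene was 0.18. The widest range was that of Rfc1, from -0.28 to 0.67 over 3 probe sets, followed by Mcm3, from -0.21 to 0.56 over 5, Mcm7, from -0.29 to 0.38 over 4, and Mcm2, from -0.44 to 0.11 over 2. Cdt1 and Pold1 had the closest probe sets, within 0.0096 and 0.060. What sets these probe sets apart was not tested.

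**Figure D5:**
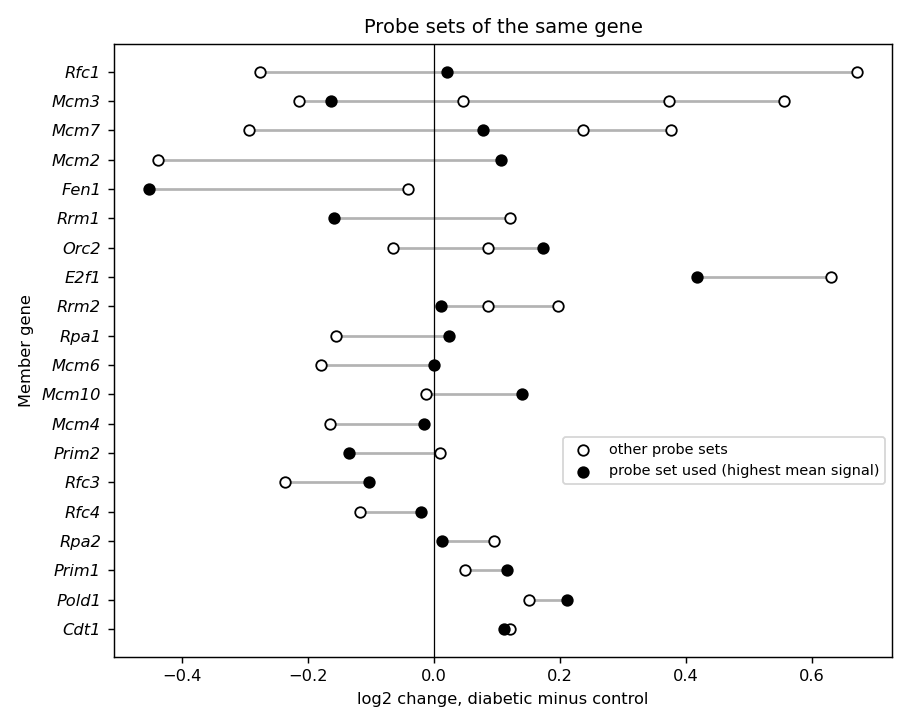
Log2 change, diabetic minus control, of every tested probe set of the 20 members that have several, ordered by their range; filled points are the probe sets used and open points the others. The points of Rfc1, Mcm3, Mcm7 and Mcm2 lie on both sides of 0, and both points of E2f1 lie above 0, at 0.42 and 0.63.

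The remaining genes of the pathway, taken from lists of partners, gave the same count of 0 calls by limma over all genes. Initiation partners (10 tested of 14 listed) had a median log2 change of 0.023 and 0 genes at an unadjusted p under 0.05, and ran from Orc4, an origin recognition subunit, with -0.12 ± 0.17 (SE, n = 3 per group) to Recql4, a helicase of origin firing, with 0.26 ± 0.21. Orc4 had signals of 609.8, 734 and 654 on diabetic replicates 1 to 3, against 804, 618 and 764 on control replicates 1 to 3, and Recql4 had 296, 264 and 178, against 155, 216 and 223. Without control replicate 1 Recql4 had 0.068.

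Fork partners (23 tested of 30 listed) had a median of 0.069 (0.038 without control replicate 1, 0.016 with array weights and -0.0046 in the second table alone), with 15 above 0 and 3 higher and 0 lower at an unadjusted p under 0.05, 13.0% against 7.59% of all genes. Chtf18, a subunit of an alternative clamp loader, had signals of 352, 425 and 164 on diabetic replicates 1 to 3, against 188, 253 and 103 on control replicates 1 to 3. The diabetic arrays were higher in both tables, by a log2 change of 0.67 ± 0.17 with a limma adjusted p of 0.526. The other pair, named after their values were seen, were Uhrf1, a reader of half-methylated DNA behind the fork, with 0.51 ± 0.16, and Pold2, a subunit of polymerase delta, with 0.43 ± 0.15, both at an adjusted p of 0.609. With any 1 array removed, Chtf18 stayed between 0.55 and 0.76, Uhrf1 between 0.35 and 0.57 and Pold2 between 0.39 and 0.45. Pole4, a subunit of polymerase epsilon, was the lowest with -0.23 ± 0.17, its signals being 500.2, 404 and 395 on diabetic replicates 1 to 3, against 619, 514 and 417 on control replicates 1 to 3.

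Nucleotide partners (13 tested of 17 listed) had the highest median of the 4 partner lists, 0.19, with 11 above 0 and 0 at an unadjusted p under 0.05. Nme1, a nucleoside diphosphate kinase, had 0.68 ± 0.52, its signals being 4894, 4765 and 4306 on diabetic replicates 1 to 3, against 909.5, 4677 and 5545 on control replicates 1 to 3. Control replicate 1, the array with the high ribosomal RNA signal, was the low one, and without it the change was -0.13. Dck, deoxycytidine kinase, had -0.36 ± 0.17, with 852, 643 and 2684 on diabetic replicates 1 to 3, against 873, 1068 and 3439 on control replicates 1 to 3. The median of this list was 0.12 without control replicate 1 and -0.11 on diabetic replicate 3.

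S phase control partners (19 tested of 20 listed) had a median of -0.056, which was 0.10 in the first table alone, with 8 above 0 and 11 below. At an unadjusted p under 0.05 by limma there were 0 higher and 1 lower, 5.26% against 7.59% of all genes. Skp2, the ubiquitin ligase subunit that marks the Cdk inhibitor p27 for degradation, had signals of 1381, 1349 and 2808 on diabetic replicates 1 to 3, against 1814, 1815 and 4096 on control replicates 1 to 3. Its diabetic arrays were lower in both tables, with a log2 change of -0.45 ± 0.15 and a limma adjusted p of 0.609, which stayed between -0.47 and -0.40 with any 1 array removed. E2f3, another activating E2F factor, had 0.33 ± 0.21 (0.15 without either array of the second table), with 309.9, 346 and 208 on diabetic replicates 1 to 3, against 229.9, 369.7 and 116 on control replicates 1 to 3.

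Mitosis genes, which act later in the same cycle, had a median log2 change of 0.0050 over 29 genes, with 16 above 0. In the first table the members' summed signal was 75590 and 78329 on the diabetic arrays, against 71546 and 72603 on the control arrays. In the second table the diabetic array was the lower one, at 73438 against 74915. In whole tissue, the number of cycling cells and the amount of these transcripts in each such cell cannot be told apart.

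Markers of cells that do and do not replicate were read beside these values, and 0 of them passed the adjusted test. Of 12 newborn neuron markers, which belong to cells that have left the cycle, 11 lay below 0 with a median of -0.45 (-0.18 without diabetic replicate 2), and their medians on diabetic replicates 1 to 3 were -0.44, -0.99 and -0.065. In the first table their summed signal was 9725 and 6071 on the diabetic arrays, against 12824 and 11669 on the control arrays. In the second table the diabetic array was the higher one, at 15638 against 14945. Of 12 neural progenitor markers, 7 lay above 0 with a median of 0.15 (0.027 in the first table alone, 0.091 without control replicate 1). Their summed signal was 30660.4 and 29802 on the diabetic arrays of the first table, against 25227 and 30547 on control replicates 1 and 2. In the second table it was 29363 on the diabetic array, against 27087 on the control array. Diabetic replicate 2, where neuron markers were lowest, was also the array with the highest median of the replication genes. The progenitor markers had medians of 0.14, -0.045 and 0.20 on diabetic replicates 1 to 3, so they too were lowest on diabetic replicate 2. The same held for the mesenchyme and meninges, erythroid and endothelium markers read below, with medians of -0.57, -0.40 and -0.18 on that array. Low values on diabetic replicate 2 were thus not particular to neuron markers. The part of these markers in the members' values was not tested.

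Other cells of the head were read in the same way. Mesenchyme and meninges markers lay below 0 for 12 of 12 genes with a median of -0.35. Their summed signal was 14244 and 13709.7 on the diabetic arrays of the first table, against 16912 and 17228 on its control arrays. In the second table it was 17578 on the diabetic array, against 21109 on the control array. The 9 erythroid markers tested had a median of 0.082 (-0.28 in the first table alone), with 5 above 0. The summed signal of all 10 measured was 50241 and 57853 on the diabetic arrays of the first table, against 44498 and 53151 on its control arrays. In the second table it was 54263 on the diabetic array, against 51752 on the control array. The 9 endothelium markers tested had a median of 0.014 (0.32 in the second table alone), with 5 above 0. The summed signal of all 10 measured was 3242 and 3006 on the diabetic arrays of the first table, against 3651 and 3222 on its control arrays. In the second table the diabetic array was the higher one, at 2654 against 2029.9. The lowest single signals of these lists belonged to Hba-a1 with 4.98 and Tie1 with 56.0, and 0 markers were at 0. Their part in the members' values was not tested.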

How the data were processed

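Deposited values are linear probe set intensities, 1 column per array, in 2 value tables; the authors' software was GCOS per the submitters' processing notes, and its algorithm is not given in the sources used here. Arrays of the 2 tables differ in chip type, per the headers of the deposited run files, which were not otherwise used. With 2% of values trimmed at each end, the deposited arrays averaged about 500, and each was rescaled to exactly 500. Of 22690 probe sets, 20380 name 1 gene in the probe annotation, 691 several and 1555 none, and 64 are array controls; 20351 of the 1-gene probe sets matched a RefSeq gene ID and 0 symbols changed. No genome build comes with the values; promoter coordinates are those of RefSeq, GRCm38.p6. Each gene was read from its probe set of highest mean signal, and 8631 of 12393 genes had a mean signal of at least 100. The added 32 shrinks fold changes where signals are low.

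The comparison of diabetic with control brains used limma 3.58.1 (R 4.3.3): a two-sided moderated test from lmFit and eBayes, blocked by value table. P-values were adjusted by Benjamini-Hochberg across the 8631 genes and called under 0.05. Residual degrees of freedom were 3, to which the prior added 6.37. The fit was also run on simulated data with independent noise, as a check of the code alone. Arrays give no read depth, so precision rests on there being 3 per group. Detailed values were given for members at an unadjusted p under 0.05, for those whose groups did not overlap in either table, and for the highest and lowest of each role; of each partner list, the highest and lowest gene was named. The members, lists and alternatives were chosen with earlier results of these data known.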

Additional observations from a re-analysis of the deposited data

How the results depend on the processing

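Over the pseudocounts 16 and 100, no filter or a mean signal of at least 200, quantile normalization, both other choices of probe set, array weights, the replicate block, the first table alone and every left-out array, 0 members and 0 genes passed limma at an adjusted p under 0.05. The median log2 change of the members lay between -0.044, in the second table alone, and 0.10, in the first table alone, and between 0.033 and 0.10 with 1 array removed. The count of members at an unadjusted p under 0.05 was 3 or 4 under the alternatives that keep all arrays and 3 in the first table alone, and 1 to 3 as single arrays were left out. It was 3 of 38 members with array weights, against 10.2% of all genes, and 3 of 38 in the first table alone, against 9.80%, which puts the members below the share of all genes in both. It was 1 without diabetic replicate 2 (E2f1, against 5.48% of all genes), 1 without control replicate 2 (Pola2, 6.56%), 2 without diabetic replicate 1 (7.66%) and 2 without control replicate 1 (4.82%). The members without overlap numbered 18 in the first table alone (42.9% of all genes), where 1 table decides, and 14 to 18 as single arrays were left out (34.7% to 42.9% of all genes). They numbered 8 after quantile normalization (21.6% of all genes) and 9 with the mean of all probe sets (21.3%), so the share of members is near that of all genes there. Among the 14 members described in detail, signs reversed for Ccne2 (0.058) and Gmnn (-0.15) in the second table alone, for Mcm3 with the mean of all probe sets (0.12) and for Mcm7 with quantile normalization (-0.018); the cause was not tested. Over all 38 members the tables differed in sign for 21. With the replicate block, 3 members stood at an unadjusted p under 0.05 (Pola2, Fen1 and E2f1) and 0 were called; the replicate numbers pair no brains in the labels, and the difference between replicates 1 and 2 correlated at -0.013 between the groups across 8631 genes. The test between tables was run in 1 form. On leaving out each array, 21 of 38 members kept their sign throughout.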
